A study of Mus musculus with 6 samples.

Results

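The genes described here build and contract unbranched actin filaments. They are the actins, formins, tropomyosins, calponins, non-muscle myosin II, filament cross-linkers and focal adhesion proteins, Rhoa, Rock1 and Rock2, and the serum response factor (SRF) with its cofactors. The 44 members are a list of gene symbols, found by Ensembl identifier among 41214 genes in the count files. Of these, 42 matched by symbol and 2, Mkl1 and Mkl2, through the RefSeq synonyms of Mrtfa and Mrtfb. RNA was measured by sequencing in 3 wild-type (wt) and 3 ARPC4 ko samples of C57BL/6 mouse epidermis at postnatal day 4, taken from trypsinized skin. Arpc4 encodes a subunit of the Arp2/3 complex. The labels do not say in which cells the gene was deleted, by which driver, or if each sample is a separate animal. The p-values therefore describe the spread between these 6 samples only, which may be technical. Values per library are given in the order of replicates 1 to 3. The titles of replicates 1 and 2 in each group share a date, and those of replicate 3 carry the mark Tryp and no date. What this mark and the date stand for is not stated, so the comparison by title date may be one of preparations, and the number 3 was given here.

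Actin filaments arise by several routes. The Arp2/3 complex starts branches on existing filaments, whereas formins start and elongate unbranched filaments, which tropomyosins coat and myosin II pulls on. Free actin monomers hold the cofactors Mkl1 and Mkl2 in the cytoplasm. When monomers are used up by assembly, the cofactors enter the nucleus and act with SRF, which binds the CArG box, at the promoters of many actin, myosin and adhesion genes. In the epidermis this machinery shapes keratinocytes, holds their junctions under tension and anchors basal cells to the matrix.

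Counts assigned to genes ran from 17561294 to 22659511 per library. Multiply aligned reads were listed apart from the genes and made up 32.4 to 40.9% of the reads listed. The tissue label was checked against keratinocyte markers, which were abundant, with Krt1 at 31500 to 70330 and Krt14 at 813.8 to 3519 CPM (counts scaled to library size) in the 6 libraries. The basal keratinocyte markers summed to 2080 CPM in wt replicate 2, against 7573 and 10160 in the other two wt libraries and 3284 to 11710 in ko. Arpc4, the targeted gene, lay at 72.6, 82.5 and 73.1 CPM (wt) and at 67.5, 65.6 and 64.5 CPM (ko; log2 fold change -0.21, edgeR adjusted p = 0.469). The 3 ko libraries were the lowest, at a fitted 0.866-fold of wt, and the gene was not called lower. The deposited counts are per gene and the labels do not name the deleted part, so these values do not check the ko labels, and ko stands below for the libraries labelled so.

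Of the 44 members, 43 passed the filter on low counts and 1, Cnn1, did not. Of the 43, 0 were called higher and 0 lower in ko by edgeR's quasi-likelihood test at a Benjamini-Hochberg adjusted p under 0.05, where 0.219% of all 13704 genes were called, all of them higher. At an unadjusted p under 0.05, 10 members (23.3%) were higher and 3 (6.98%) lower, against 7.98% and 5.25% of all genes. The ko libraries were the highest 3 of 6 in 10 members and the lowest 3 of 6 in 4, against 11.3% and 8.03% of all genes. The median log2 fold change (log2 FC, ko over wt) was 0.14 over the members and 0.02 over all genes. The median of the members was 0.04 in the dated libraries alone, and without ko replicate 3 it was -0.0050, with 20 members above and 23 below 0. DESeq2 called 4 members higher (Fmnl2, Enah, Tpm2 and Fhl2) and 1 lower (Cnn2), where it called 2.82% of genes higher and 1.43% lower. When the presence of a date in the title was a covariate, edgeR called the same 4 higher and 0 lower, where 3.2% of genes were called higher and 1.98% lower. limma-voom called 0 members and 0 genes, and an unadjusted p under 0.05 was reached by 10 members with higher and 3 with lower values, against 7.74% and 5.01% of all genes. At an unadjusted p under 0.05 edgeR counted 8 members without wt replicate 1 and 7 without ko replicate 2, in place of 13.

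**Figure D1:**
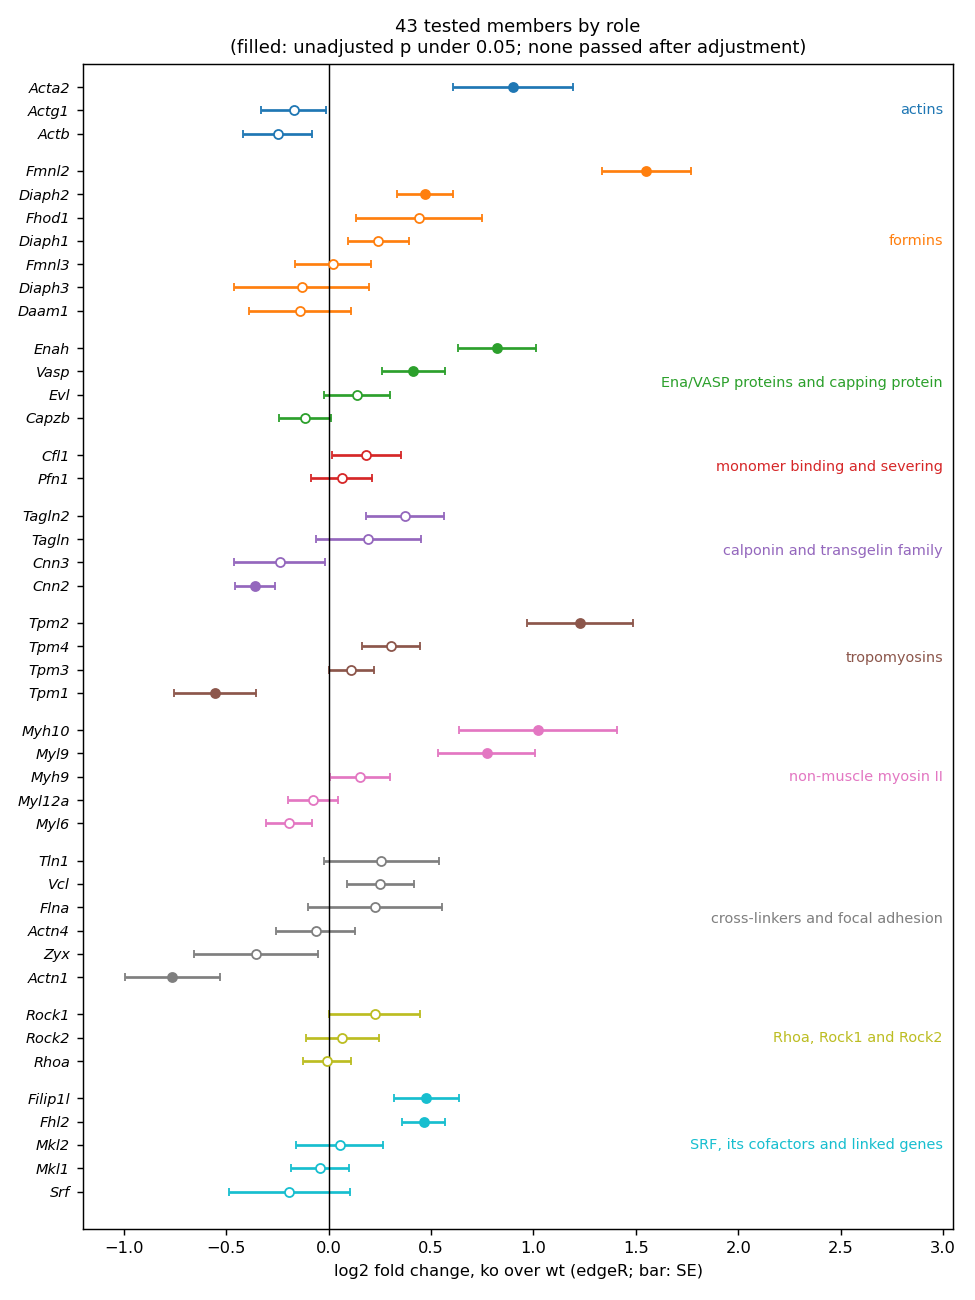
Log2 fold change of ko over wt (x axis, with SE as bars) for the 43 tested members, grouped by role on the y axis, with filled points at an unadjusted p under 0.05. Fmnl2 lies farthest to the right at 1.55 and Actn1 farthest to the left at -0.76, and the roles other than monomer binding and severing hold members on both sides of 0.

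SRF binding sites can be read as letters in the promoters. RefSeq promoters (build GRCm38.p6, 250 bases before to 50 after the start site) were at hand for 40 members. Of these, 8 (20%) held an exact CArG box, against 1.806% of 27025 genes with a promoter entry. Members were listed as contractile actin and SRF-linked genes, so the higher share may follow from that choice. The pattern searched finds a box on either strand, though the letters of a single box can differ between strands. The 8 were Actg1, Cnn2, Fhl2, Filip1l, Myl6, Myl9, Srf and Vcl. The windows below are shown because these members differ in how they stood in the ko libraries, and the capitals mark the box.
Srf: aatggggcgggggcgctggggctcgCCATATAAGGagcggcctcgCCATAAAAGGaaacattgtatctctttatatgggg
Fhl2: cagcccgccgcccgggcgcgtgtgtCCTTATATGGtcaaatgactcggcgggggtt
Filip1l: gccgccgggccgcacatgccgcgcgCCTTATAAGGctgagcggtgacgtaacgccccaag
Myl9: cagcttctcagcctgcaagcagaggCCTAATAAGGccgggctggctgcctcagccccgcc
Cnn2: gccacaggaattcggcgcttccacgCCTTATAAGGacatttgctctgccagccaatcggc
Actg1: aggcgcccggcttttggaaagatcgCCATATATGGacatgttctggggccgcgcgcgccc
They lie at chr17:46556190-46556269 (minus strand), chr1:43163962-43164017 (minus), chr16:57549155-57549214 (plus), chr2:156775278-156775337 (plus), chr10:79988519-79988578 (plus) and chr11:120348551-120348610 (minus), each upstream of the start site of its RefSeq promoter entry and outside annotated exons. For Fhl2 and Filip1l that start site is an alternative one, so the window lies inside the annotated gene (chromosome 1, 43123074 to 43196984, and chromosome 16, 57353093 to 57573126). Fhl2 holds another box, CCAAAAAAGG, in a second promoter entry, and the windows around that box and the box of Myl6 lie in annotated exons and are not shown. Of the 8 members with a box, 3 were higher (Fhl2, Filip1l, Myl9) and 1 lower (Cnn2) in ko at an unadjusted p under 0.05, and 0 were called after adjustment. Among all 168 tested genes with a box, 8.333% were higher and 4.762% lower at that level, close to the 7.583% and 5.232% of the 10550 tested genes with a promoter entry. Cnn2, Filip1l and Vcl hold the same box letters, CCTTATAAGG, and Cnn2 and Filip1l stood on opposite sides of 0. A match of letters is a description and does not show that SRF was bound.

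Actins are the subunits of the filament. The cytoplasmic beta-actin Actb and gamma-actin Actg1 were the most abundant members per length, at 647.0 and 540.7 RPKM (CPM divided by the summed exon length in kb) over the 6 libraries. Actb (ENSMUSG00000029580, chromosome 5, 142903115 to 142906754, mm10) lay at 1827, 1995 and 1823 CPM (wt) and at 1667, 1368 and 1721 CPM (ko). The 3 ko libraries were the lowest, with averages of 1882 ± 98.1 (wt) and 1585 ± 189.8 CPM (ko; SD, n = 3), and the log2 fold change stood at -0.25 (SE 0.17, 95% interval -0.65 to 0.15, edgeR adjusted p = 0.617). Actg1 stood at 1522 ± 154.9 CPM in wt and 1352 ± 79.1 in ko with overlapping groups (log2 fold change -0.17, adjusted p = 0.746 by edgeR). The summed level of the 3 actins per length was 1212, 1296 and 1321 in wt and 1129, 994.8 and 1185 in ko, so that the ko libraries were the lowest 3. The counts of Actg1 are incomplete, since 56.68% of the windows of read length in its transcript also occur in a transcript of another gene, pseudogenes included, against 13.26% for Actb.

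Acta2 encodes the alpha-actin of smooth muscle, pericytes and myofibroblasts (chromosome 19, 34241090 to 34255590). It was rare, at 2.99, 1.97 and 3.27 CPM (wt) and 4.62, 6.62 and 4.25 CPM (ko). The 3 highest libraries were those of ko (log2 fold change 0.90, SE 0.29, unadjusted p = 0.018, adjusted p = 0.257 by edgeR). Its share of the actin pool per length was 0.0981% in wt and 0.218% in ko. Other markers of vessel-associated cells were higher in the same libraries. The smooth muscle myosin Myh11 was at 0.396, 0.638 and 0.589 CPM (wt) and 4.22, 4.97 and 2.83 CPM (ko; log2 FC 2.88, edgeR adjusted p = 0.0459). Of the 8 smooth muscle and pericyte markers 6 were tested. Of these, 3 (50%) had every ko library above every wt library, against 11.3% of all tested genes, and so did the untested Lmod1. The 8 markers summed to 156.4 to 217.7 CPM in wt and to 165.8 to 289.3 CPM in ko. Most of this sum was Notch3, which keratinocytes also express. Rgs5 lay at 0.132, 0.691 and 0.816 CPM (wt) and 8.15, 11.65 and 3.62 CPM (ko; log2 FC 3.84, edgeR adjusted p = 0.0822). Pdgfrb lay at 0.308, 0.213 and 0.317 CPM (wt) and 3.13, 3.02 and 0.997 CPM (ko; log2 FC 3.04, edgeR adjusted p = 0.095). DESeq2 called both higher (adjusted p = 7.031e-07 and 0.0002026). Lmod1 reached at most 0.0532 CPM in wt and 0.355 CPM in ko, and Actg2 0.532 and 0.591 CPM, both too low to test. Des, Cspg4, Notch3 and Actg2 overlapped between the groups. The 6 endothelial markers summed to 3.14 to 3.92 CPM in wt and 9.23 to 19.2 CPM in ko. The 5 tested ones all had every ko library above every wt library, as did the untested Emcn. The 6 fibroblast markers summed to 52.9 to 156.3 CPM in wt and 161.7 to 721.1 CPM in ko. Of these 6, all tested, 4 (66.7%) had every ko library above every wt library, against 11.3% of all tested genes. The part of these cells in the values of Acta2, and of other low members named below, was not tested. In bulk tissue, more cells of a type and more RNA per cell cannot be told apart.

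Formins bind the growing filament end. Daam1, a formin of Wnt and planar polarity signalling, and Diaph1, a Diaphanous formin, held most of the formin pool per length, at 42.1 and 24.5 RPKM. Daam1 lay at 352.4, 452.7 and 266.4 CPM (wt) and 345.7, 382.4 and 244.2 CPM (ko), with full overlap (log2 fold change -0.14). Diaph1 stood at 142.5 ± 13.9 and 168.6 ± 23.5 CPM (SD, n = 3; log2 FC 0.24, adjusted p = 0.575 by edgeR).

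Fmnl2 (ENSMUSG00000036053, chromosome 2, 52857860 to 53133804), an effector of Cdc42 at lamellipodia and cell junctions, showed the largest difference of the 43 tested members. It lay at 12.3, 11.4 and 9.7 CPM (wt) and at 23.4, 36.1 and 38.5 CPM (ko). The lowest ko library was far above the highest wt library. The averages were 11.1 ± 1.31 and 32.7 ± 8.13 CPM (SD, n = 3), a 2.93-fold difference (log2 fold change 1.55, SE 0.22, 95% interval 1.03 to 2.07). The edgeR adjusted p was 0.0637, above the threshold. It was 0.017 with the title date as a covariate, 0.0474 among the dated libraries alone (log2 fold change 1.30, where 1.16% of genes were called higher), 0.0341 without ko replicate 1 and 1.439e-06 with DESeq2. It was 0.0885 with limma-voom, and 0.378, 0.206 and 0.117 with edgeR without wt replicates 1, 2 and 3, 0.192 without ko replicate 2 and 0.0694 without ko replicate 3. In the summed formin level per length, Fmnl2 made up 2.8, 2.24 and 2.67% in wt and 5.05, 6.89 and 9.52% in ko. The pool itself overlapped between groups, at 77.5 ± 13.1 and 82.3 ± 10.6 RPKM. Of the 5458 read-length windows in its transcript 0 are shared with another gene. Among the marker sums, only that of the 4 melanocyte markers ranked the 6 libraries in the same order as Fmnl2. That sum was 66.6, 61.3 and 57.1 CPM (wt) and 71.7, 83.6 and 117.9 CPM (ko). This order was looked at after the values were known, and the part of melanocytes in the value of Fmnl2 was not tested.

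Diaph2, another Diaphanous formin, on the X chromosome (129749742 to 130465834), lay at 34.0, 30.3 and 31.0 CPM (wt) and 37.4, 49.7 and 45.0 CPM (ko). The groups did not overlap (log2 FC 0.47, SE 0.14, unadjusted p = 0.0108, adjusted p = 0.202 by edgeR), and sex was not a label of the samples. Diaph3, the third Diaphanous formin, ran from 19.4 to 24.9 CPM in wt and from 12.8 to 31.9 CPM in ko (log2 FC -0.13). Its highest library, ko replicate 3, also had the highest sum of basal keratinocyte markers (11710 CPM). Fhod1 (log2 FC 0.44) was rare, at 3.63 CPM in its highest library. Fmnl3, the closest relative of Fmnl2 on the list, differed little (8.46 ± 0.715 and 8.62 ± 1.38 CPM, log2 fold change 0.02 with a 95% interval of -0.42 to 0.47). Of 5 tested formins outside the list, 0 were called by edgeR. At an unadjusted p under 0.05, 1 was higher and 1 lower in ko, against 7.98% and 5.25% of all genes. Daam2, at 0.704, 0.532 and 0.589 CPM (wt) and 2.34, 2.31 and 1.42 CPM (ko), had the largest value (log2 FC 1.71, edgeR adjusted p = 0.0947, 0.00725 with DESeq2). Fhod3, a formin of muscle sarcomeres, had its 3 ko libraries below its 3 wt libraries (log2 FC -0.45, adjusted p = 0.288), and Fmnl1 (log2 FC 0.43) and Inf2 (log2 FC -0.30) overlapped.

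Ena/VASP proteins carry actin monomers to growing ends and work beside formins in filopodia and at junctions. Vasp, the most abundant of them per length, lay at 52.2, 45.8 and 64.2 CPM (wt) and 75.7, 64.0 and 76.6 CPM (ko; log2 fold change 0.41, SE 0.16, unadjusted p = 0.0333, adjusted p = 0.324 by edgeR). The groups met at 64 CPM, with wt replicate 3 just above ko replicate 2. Enah (Mena; ENSMUSG00000022995, chromosome 1, 181896384 to 182019990) lay at 72.2, 67.5 and 56.1 CPM (wt) and 106.3, 145.1 and 94.5 CPM (ko). The 2 groups were well separated, with means of 65.2 ± 8.27 and 115.3 ± 26.5 CPM (SD, n = 3; log2 FC 0.82, SE 0.19, 95% interval 0.37 to 1.28). The edgeR adjusted p was 0.14, against 0.0226 with the title date as a covariate, 0.0701 in the dated libraries alone and 0.0192 with DESeq2. The order of its ko libraries (2, 1, 3) was that of the fibroblast and endothelial marker sums. It was also that of the suprabasal keratinocyte marker sum (129800, 148900 and 78650 CPM in ko replicates 1 to 3). In wt, Enah fell from replicate 1 to 3 while the fibroblast sum rose (52.9, 125.0 and 156.3 CPM). The part of any of these cells in the value of Enah was not tested. The third relative, Evl, stood at 15.4 ± 1.98 and 17.0 ± 2.17 CPM (log2 FC 0.14, adjusted p = 0.804 by edgeR). Per length the 3 genes summed to 27.9, 25.8 and 33.1 in wt and to 39.3, 36.5 and 40.3 in ko. Capzb, a subunit of the protein that caps filament ends and so opposes elongation, lay at 219.7, 256.5 and 216.1 CPM (wt) and 201.8, 223.2 and 214.0 CPM (ko), with overlapping groups (log2 FC -0.12, 95% interval -0.41 to 0.18).

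**Figure D2:**
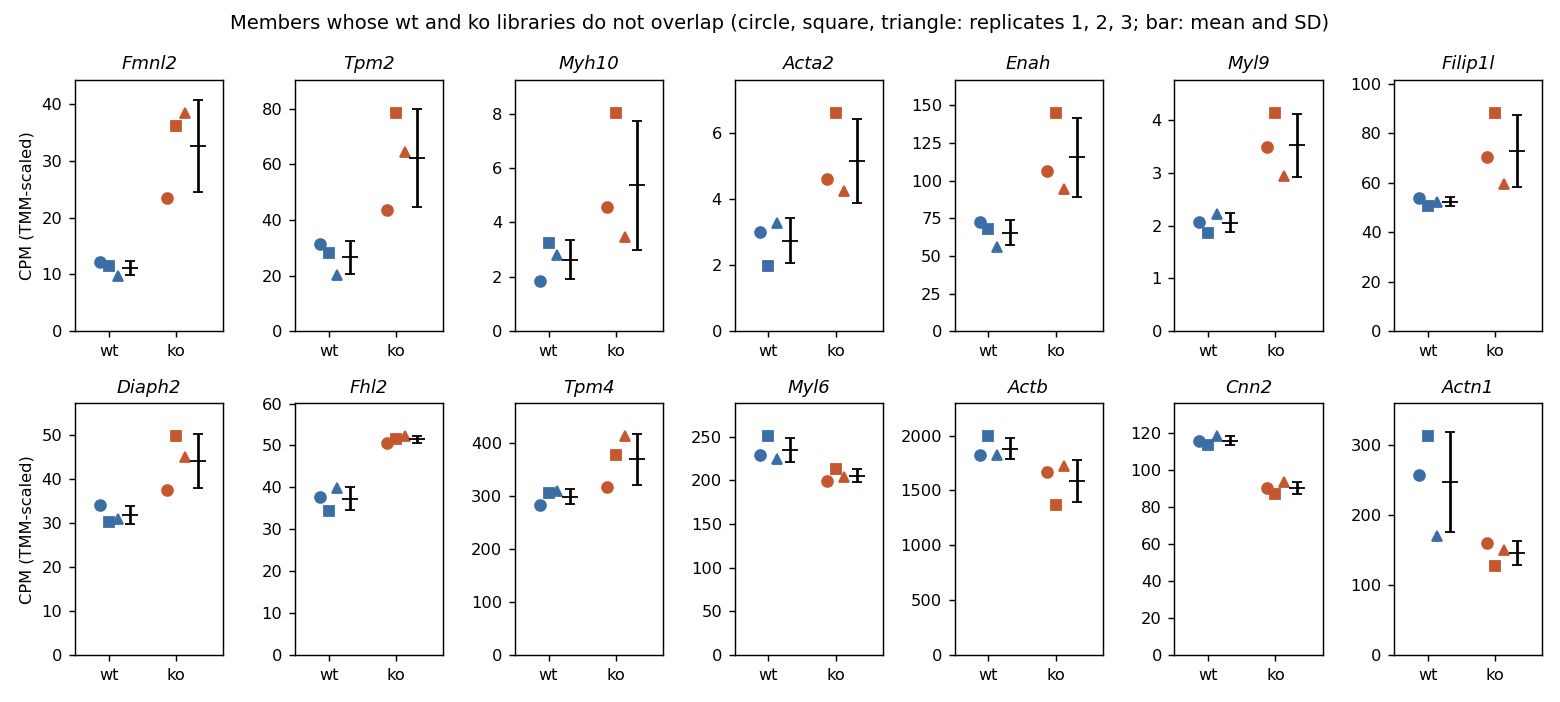
CPM (TMM-scaled, y axis from 0) of the 14 tested members whose groups do not overlap, by group (x axis) and replicate, with the mean and SD as a bar. Fmnl2, Tpm2 and Enah show wide gaps between the groups, Fhl2 and Cnn2 narrow spreads within them, and in Tpm4 the nearest libraries almost touch.

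Profilin and cofilin control the supply of monomers. Pfn1, which feeds monomers to formins, stood at 147.8 ± 15.5 and 154.5 ± 21.7 CPM (log2 fold change 0.06, 95% interval -0.29 to 0.42). Cfl1, which severs old filaments, lay at 245.0, 241.3 and 271.9 CPM (wt) and 248.5, 259.8 and 353.5 CPM (ko; log2 FC 0.18). The library of ko replicate 3 stood above the wt range and the other two ko libraries within it. Of 11 tested genes of actin turnover outside the list, 0 were called by edgeR. At an unadjusted p under 0.05, 0 were higher and 1 (9.09%) was lower in ko, against 7.98% and 5.25% of all genes. The lowest was Pfn2, a second profilin, at 26.4, 33.6 and 29.1 CPM (wt) and 20.4, 15.3 and 16.9 CPM (ko; log2 FC -0.76, unadjusted p = 0.00219, adjusted p = 0.112 by edgeR). Its 3 ko libraries were below its 3 wt libraries, and it was called lower by DESeq2 (adjusted p = 0.00712) and with the title date as a covariate (adjusted p = 0.0415). The capping proteins Capg (log2 FC 0.58) and Capza1 (log2 FC 0.23) and Tmsb4x (log2 FC -0.34), which stores free monomers, had edgeR adjusted p of 0.475, 0.628 and 0.665.

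Calponins and transgelins bind along filaments. The libraries held mainly the widely expressed forms, with Tagln2 at 144.8, Cnn2 at 41.8 and Cnn3 at 41.4 RPKM. The smooth muscle forms Tagln and Cnn1 were at 1.67 and 0.123. Cnn2 (ENSMUSG00000004665, chromosome 10, 79988584 to 79996062), whose promoter window is printed above, lay at 115.4, 113.2 and 118.0 CPM (wt) and at 90.0, 87.0 and 93.2 CPM (ko). It had a narrow spread in both groups, with means of 115.5 ± 2.43 and 90.1 ± 3.08 CPM (SD, n = 3; log2 fold change -0.36, SE 0.10, 95% interval -0.59 to -0.12). Its adjusted p was 0.185 with edgeR, 0.0513 with the title date as a covariate and 0.0184 with DESeq2. Tagln2 lay at 258.9, 244.0 and 285.5 CPM (wt) and 307.2, 280.2 and 433.4 CPM (ko), where ko replicate 2 fell inside the wt range (log2 FC 0.37, adjusted p = 0.483 by edgeR). Cnn3 ran from 104.1 to 182.3 CPM in wt and 100.8 to 124.3 CPM in ko (log2 FC -0.24). Cnn2 made up 20.5 to 22.0% of the family pool per length in wt and 13.5 to 16.6% in ko. Tagln, a commonly used smooth muscle and SRF marker, lay at 3.39, 2.23 and 3.67 CPM (wt) and 3.48, 3.31 and 3.88 CPM (ko; log2 FC 0.19, 95% interval -0.42 to 0.80). Its exons overlap Pcsk7 and Gm48529 on the opposite strand over 67.86% of their length. Cnn1 was at 0.181 to 0.616 CPM in wt and 0.296 to 0.367 CPM in ko, too low to test.

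Tropomyosins decide which partners a filament can bind. Their members went in different directions. Tpm2 (ENSMUSG00000028464, chromosome 4, 43514711 to 43523765) lay at 31.5, 28.1 and 20.1 CPM (wt) and 43.4, 78.7 and 64.6 CPM (ko), so that each ko library was above each wt library. The means were 26.6 ± 5.85 and 62.2 ± 17.7 CPM (SD, n = 3), a 2.34-fold difference (log2 fold change 1.23, SE 0.26, 95% interval 0.61 to 1.85). The adjusted p was 0.115 with edgeR, 0.0467 with the title date as a covariate, 0.165 in the dated libraries alone and 0.00331 with DESeq2. Tpm2 is also a gene of smooth and skeletal muscle. The 8 skeletal muscle markers summed to 33.8 CPM in ko replicate 2, its highest library, against 4.31 to 7.66 CPM in the other five libraries. In ko replicate 3, where Tpm2 was at 64.6 CPM, that sum was 4.41 CPM. The smooth muscle and pericyte sum was 165.8 CPM there, inside the wt range, with 143.2 CPM of it from Notch3. In that library Myh11, Rgs5, Pdgfrb and Lmod1 stood at 2.83, 3.62, 0.997 and 0.262 CPM, above each wt library. Cspg4 (14.2 CPM) was just above the wt libraries, Actg2 (0.42 CPM) within their range and Des (0.315 CPM) below it. Without ko replicate 2 the log2 fold change of Tpm2 was 1.02 (edgeR adjusted p = 0.32). The part of muscle cells in these values was not tested.

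Tpm1 (ENSMUSG00000032366, chromosome 9, 67022590 to 67049406) lay at 238.5, 232.8 and 148.1 CPM (wt) and 153.0, 133.6 and 135.0 CPM (ko). Its groups overlapped only through wt replicate 3, the undated library (log2 FC -0.55, SE 0.20, unadjusted p = 0.0293, adjusted p = 0.31 by edgeR). Tpm4, the most abundant tropomyosin per length, lay at 282.2, 305.2 and 308.5 CPM (wt) and 317.5, 377.5 and 412.3 CPM (ko). The groups did not overlap, though the lowest ko library was near the highest wt library (log2 FC 0.31, adjusted p = 0.433). Tpm3 stood at 95.1 ± 1.35 and 102.7 ± 8.75 CPM (log2 FC 0.11), with 62.02% of its windows shared with other genes. Shares within the tropomyosin pool per length do not depend on the scaling of libraries. That of Tpm2 was 5.66, 4.83 and 3.72% in wt and 7.5, 11.5 and 8.93% in ko. That of Tpm1 was 19.2, 18.0 and 12.3% in wt and 11.9, 8.78 and 8.37% in ko. Both shares were separated between the groups, in opposite directions, while those of Tpm3 and Tpm4 overlapped. These shares were looked at after the values of the single genes were known.

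**Figure D3:**
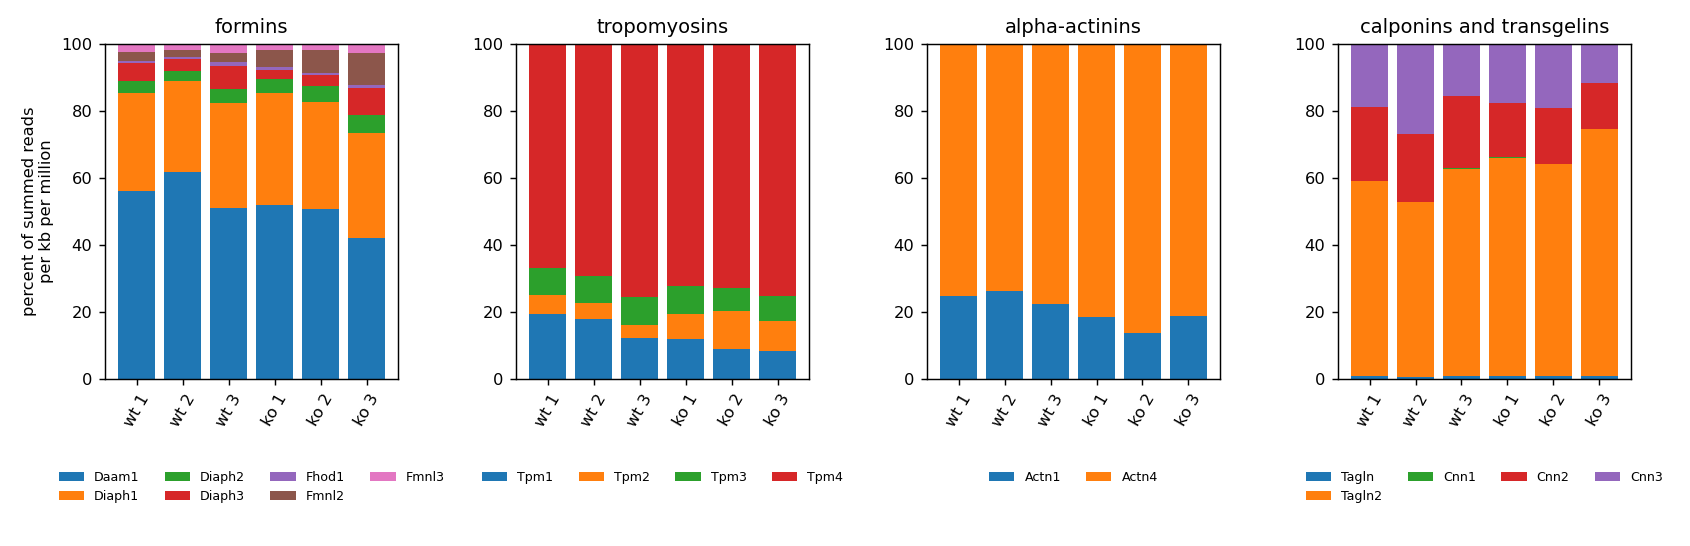
Share of each gene (y axis, percent of the summed RPKM) in 4 families, for each of the 6 libraries (x axis). The segments of Fmnl2, Tpm2 and Tagln2 are larger, and those of Tpm1, Actn1 and Cnn2 smaller, in each ko library than in each wt library.

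Non-muscle myosin II contracts the filaments. Its heavy chain Myh9 was the main form, at 98.9 to 99.5% of the pool of Myh9 and Myh10 in wt and 97.6 to 99.1% in ko. Myh9 lay at 436.5, 351.2 and 376.9 CPM (wt) and 418.7, 400.0 and 477.3 CPM (ko; log2 fold change 0.15, 95% interval -0.20 to 0.51). The light chains Myl6 and Myl12a were abundant too. Myl6, the most abundant of this role per length, lay at 229.6, 250.7 and 224.6 CPM (wt) and 199.2, 213.5 and 203.9 CPM (ko). Every ko library was below every wt library (log2 FC -0.19, SE 0.11, adjusted p = 0.553 by edgeR). Myl12a overlapped (log2 FC -0.08), and 29.52% of its windows are shared, among others with Myl12b. The rare members stood on the other side. Myh10, common in fibroblasts and vessels, lay at 1.85, 3.24 and 2.81 CPM (wt) and 4.57, 8.04 and 3.46 CPM (ko; log2 FC 1.02, SE 0.39, adjusted p = 0.325). Myl9, the light chain of smooth muscle and stress fibers, lay at 2.07, 1.86 and 2.22 CPM (wt) and 3.48, 4.14 and 2.94 CPM (ko; log2 FC 0.77, SE 0.24, adjusted p = 0.237). Both had non-overlapping groups. In both the order of the ko libraries (2, 1, 3) was that of the fibroblast, endothelial and suprabasal keratinocyte marker sums. The order of the wt libraries was that of none of these sums in either gene.

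Cross-linkers and adhesion proteins tie filaments together and to the membrane. Actn4, an alpha-actinin, was the most abundant of them per length, at 865.0, 974.2 and 656.3 CPM (wt) and 783.6, 885.4 and 721.2 CPM (ko; log2 fold change -0.06, 95% interval -0.52 to 0.39). Actn1, the alpha-actinin of stress fibers and focal adhesions (ENSMUSG00000015143, chromosome 12, 80167547 to 80260371), had the lowest value of the 43 tested members. It lay at 256.9, 312.1 and 170.4 CPM (wt) and at 159.7, 126.9 and 149.1 CPM (ko). The groups did not overlap, but wt replicate 3 came close to ko replicate 1 (log2 FC -0.76, SE 0.23, 95% interval -1.32 to -0.21, adjusted p = 0.231 by edgeR). In the dated libraries alone the log2 fold change was -1.02 (adjusted p = 0.0511), and with the title date as a covariate -0.73 (adjusted p = 0.0829). Actn1 made up 24.8, 26.2 and 22.3% of the alpha-actinin pool per length in wt and 18.4, 13.7 and 18.6% in ko.

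The large filament linkers Flna and Tln1 overlapped between the groups. Flna lay at 302.3, 145.6 and 322.9 CPM (wt) and 238.3, 281.0 and 383.4 CPM (ko; log2 FC 0.23, 95% interval -0.55 to 1.01). Tln1, which couples integrins to actin, lay at 83.7, 45.1 and 88.1 CPM (wt) and 77.8, 74.1 and 107.7 CPM (ko; log2 FC 0.26). In both genes wt replicate 2 was the lowest library and ko replicate 3 the highest, as for the sum of the basal keratinocyte markers, whose part in these values was not tested. The tension sensor Zyx ran from 21.8 to 42.2 CPM in wt and 17.3 to 31.5 CPM in ko (log2 FC -0.36). Vcl, the link of talin to actin, lay at 154.4, 128.7 and 131.9 CPM (wt) and 139.8, 156.4 and 198.3 CPM (ko; log2 FC 0.25), and 39.18% of its windows are shared with Ap3m1, which it overlaps on the opposite strand. Of 16 tested focal adhesion genes outside the list, 0 were called by edgeR. At an unadjusted p under 0.05, 0 were higher and 1 (6.25%) was lower in ko, against 7.98% and 5.25% of all genes. That gene, the vinexin gene Sorbs3, lay at 11.97, 17.82 and 12.97 CPM (wt) and 9.0, 6.62 and 7.82 CPM (ko; log2 FC -0.86, adjusted p = 0.157), and DESeq2 called it lower (adjusted p = 0.0214). Lpp (log2 FC 0.33), a relative of zyxin, and Fermt2 (log2 FC 0.34), a kindlin, had edgeR adjusted p of 0.478 and 0.532. The scaffold Pxn (log2 FC -0.04) and the kinases Ptk2 (log2 FC 0.23) and Ilk (log2 FC 0.05) overlapped between the groups.

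**Figure D4:**
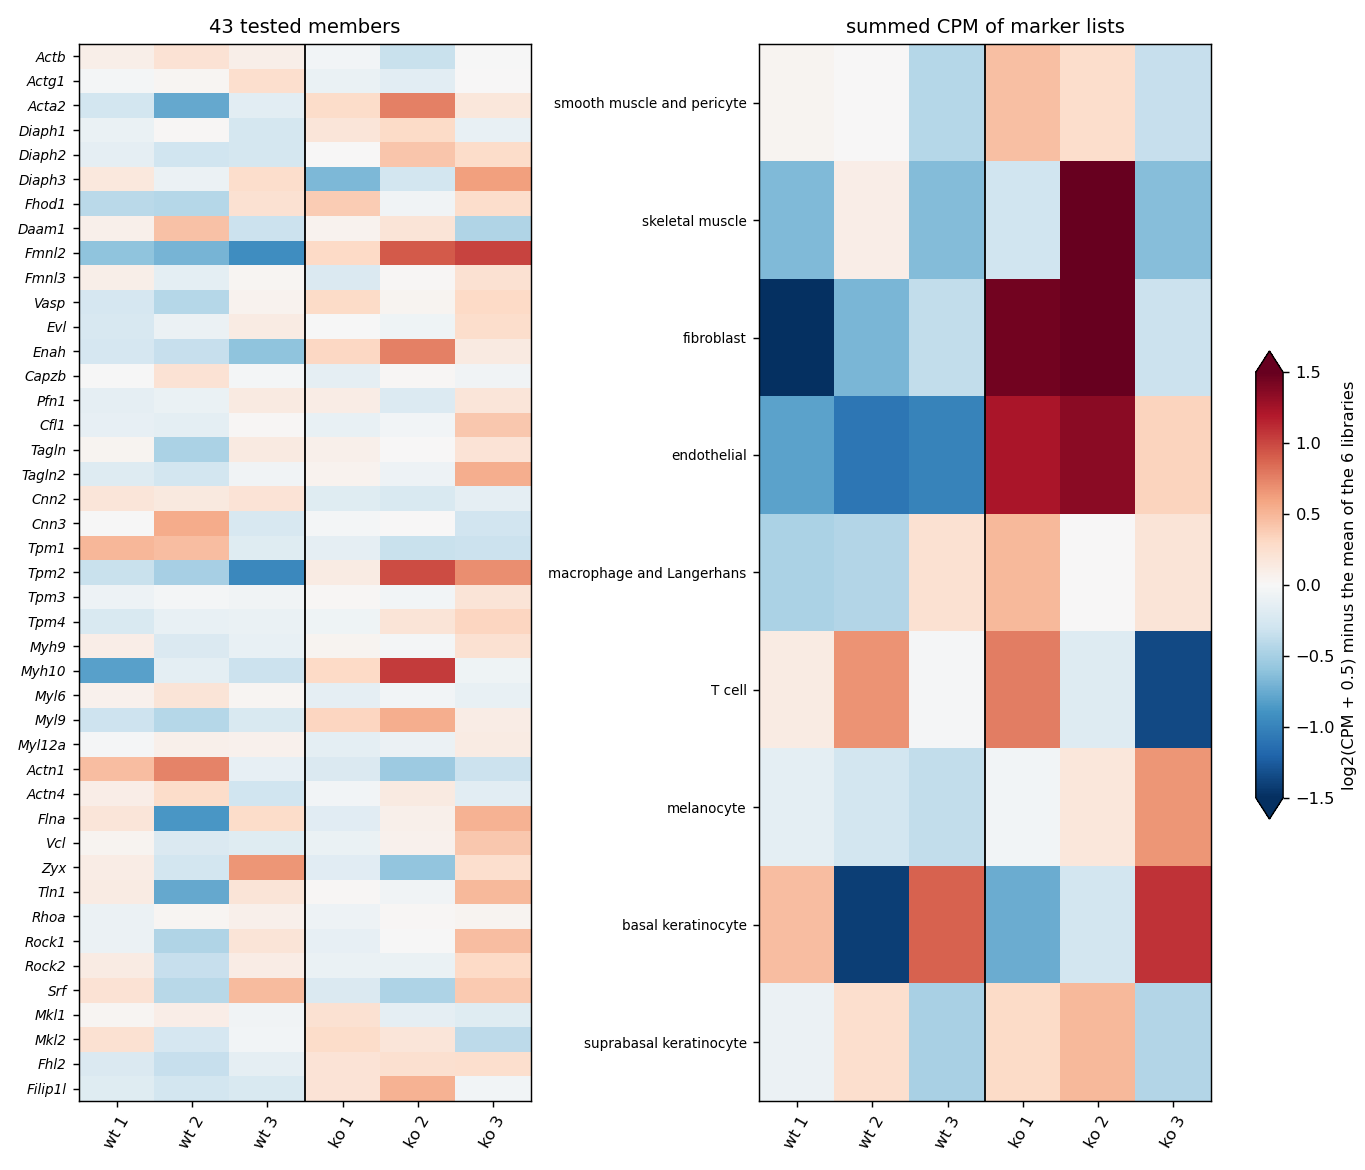
Each library's log2(CPM + 0.5) minus the mean of the 6 libraries, for the 43 tested members in order of role (left) and for the summed CPM of the marker lists (right), with colours cut at 1.5 in either direction. Flna and Tln1 are low in wt replicate 2, as are the basal keratinocyte markers, and the endothelial markers are higher in each ko library.

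Rhoa, a small GTPase, and the kinases Rock1 and Rock2 act in contraction. Rhoa lay at 239.3, 259.3 and 267.6 CPM (wt) and 241.5, 257.9 and 262.2 CPM (ko; log2 fold change -0.01, 95% interval -0.29 to 0.27). The ko values fell within the wt range. Rock1 stood at 38.5 ± 8.59 and 45.0 ± 10.3 CPM (log2 FC 0.23) and Rock2 at 53.2 ± 9.29 and 55.7 ± 9.29 CPM (log2 FC 0.07).

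SRF and its cofactors were present in each library. Srf, with 2 CArG boxes of its own, lay at 98.1, 63.0 and 117.5 CPM (wt) and 72.6, 61.0 and 110.2 CPM (ko). The groups overlapped, and the undated library was the highest of each (log2 fold change -0.19, 95% interval -0.89 to 0.51). Mkl1 stood at 42.3 ± 2.34 and 41.1 ± 6.63 CPM (log2 FC -0.04) and Mkl2 at 42.3 ± 7.17 and 43.9 ± 10.3 CPM (log2 FC 0.05). These cofactors are controlled mainly by where the protein lies in the cell, which was not measured. The linked genes Fhl2 and Filip1l were higher in each ko library. Fhl2, a LIM-only coregulator of SRF (ENSMUSG00000008136, chromosome 1, 43123074 to 43196984), lay at 37.6, 34.4 and 39.8 CPM (wt) and 50.5, 51.6 and 52.2 CPM (ko). The ko libraries were close together and apart from wt (log2 FC 0.46, SE 0.10, 95% interval 0.22 to 0.71). The adjusted p was 0.13 with edgeR, 0.0382 with the title date as a covariate, 0.123 in the dated libraries alone and 0.0188 with DESeq2. Filip1l (filamin A interacting protein 1-like) lay at 54.0, 50.5 and 52.5 CPM (wt) and 70.6, 88.5 and 59.6 CPM (ko; log2 FC 0.48, SE 0.16, unadjusted p = 0.0201, adjusted p = 0.269 by edgeR). Its ko libraries stood in the same order (2, 1, 3) as the fibroblast, endothelial and suprabasal keratinocyte marker sums. Its wt libraries stood in the order of the endothelial sum, but not of the fibroblast or suprabasal keratinocyte sums. The part of those cells was not tested.

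Of 24 tested SRF-linked genes outside the list, 0 were called by edgeR and 0 by DESeq2, and an unadjusted p under 0.05 was reached by 2 with higher and 0 with lower values in ko, against 7.98% and 5.25% of all genes. The 2 were the immediate early gene Fosb, at 418.2, 489.1 and 428.2 CPM (wt) and 758.2, 659.2 and 547.2 CPM (ko; log2 FC 0.56, adjusted p = 0.226), and the filament adaptor Pdlim7, at 11.2, 12.1 and 8.48 CPM (wt) and 16.0, 15.4 and 15.8 CPM (ko; log2 FC 0.57, adjusted p = 0.221). The integrin Itga5 (log2 FC 1.06, adjusted p = 0.44) and Ccn2 (log2 FC -0.47, adjusted p = 0.547) had the next smallest p. Of the classic immediate early genes, Fos stood at 0.15 and Egr1 at 0.14, with overlapping groups. The median of the 24 genes was 0.12.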

How the data were processed

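RNA of 6 samples was read as 51 bp single-end reads from stranded mRNA libraries, per the labels' protocols. Per the submitters' processing notes, TopHat2 2.0.12, Bowtie 1.1 and HTSeq were used, with mm10. Their settings, strand option and annotation were not given in the sources used here. The authors deposited raw counts for each Ensembl gene, and rows of unassigned reads were left out. Reads of a gene and an overlapping gene may be mixed where strand was not used.

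Groups came from the genotype label. Genes were kept by filterByExpr, scaled by TMM and tested with edgeR 4.0.16 (R 4.3.3; glmQLFit, robust; glmQLFTest; Benjamini-Hochberg over 13704 genes; threshold 0.05). CPM are TMM-scaled, and levels per kb use the summed exons of GENCODE M21 on GRCm38. Standard errors were taken as the log2 fold change, without its sign, divided by the root of the F statistic. DESeq2 1.42.0, limma-voom 3.58.1, other scalings, filters and designs, and leaving out each library were the alternatives. Tests were checked on simulated counts. Windows of 51 bases from each member's longest coding transcript were searched in all other annotated transcripts. Values for every library are given for members with non-overlapping groups, an unadjusted p under 0.05 or the highest level of their role, and for some others. From the further lists reported up to 4 genes with the smallest p are named. Some well-known genes (Pxn, Ptk2, Ilk, Fos, Egr1, Egr2, Egr3, Ier2, Junb) were added after their values were seen. Members and lists were chosen with earlier results of these data known. Some results of the further lists are not reported here.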

Additional observations from a re-analysis of the deposited data

How the results depend on the processing

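Of the 43 tested members, 28 kept their direction in the 15 alternatives run (19 higher, 9 lower), among them the 13 with an unadjusted p under 0.05. The number of genes called was 30, against 57 with no filter on low counts, 18 with at least 1 CPM in 3 libraries, 650 with DESeq2, 0 with limma-voom, 709 with the title date as a covariate and 227 in the dated libraries. It ran from 0 to 64 when single libraries were left out, and was 0 without any wt library or without ko replicate 2. The number of members called was 0, against 1 with no filter (Fmnl2), 5 with DESeq2, 4 with the title date as a covariate, 1 in the dated libraries (Fmnl2) and 0 to 1 when single libraries were left out (Fmnl2, without ko replicate 1). The members at an unadjusted p under 0.05 numbered 13, and 7 to 13 without single libraries, with 8 without wt replicate 1 and 7 without ko replicate 2. With the replicate number as a block, edgeR called 354 of 13704 genes and 2 members (Fmnl2 and Enah). Same-numbered libraries did not deviate together in every pair (r = -0.17, 0.51 and 0.71 across genes), so the numbers were not taken as pairs, and not every library correlated best with its own number. In the dated libraries Fmnl3 was at -0.11 and Rock2 at -0.033.

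Leaving out single libraries turned the sign of 15 members close to 0. Their log2 fold changes then ran from -0.23 to 0.065 for Actn4, -0.027 to 0.28 for Cfl1, -0.42 to 0.025 for Cnn3, -0.34 to 0.065 for Daam1, -0.63 to 0.12 for Diaph3, -0.0050 to 0.23 for Evl, -0.057 to 0.42 for Flna, -0.13 to 0.14 for Fmnl3, -0.18 to 0.013 for Mkl1, -0.074 to 0.20 for Mkl2, -0.052 to 0.18 for Pfn1, -0.094 to 0.026 for Rhoa, -0.0099 to 0.39 for Rock1, -0.11 to 0.14 for Rock2 and -0.51 to 0.0075 for Srf. The median of the 43 members was 0.14, and -0.0050 without ko replicate 3. The cause was not tested. Counting error limits members of few CPM, such as Acta2, Myl9, Myh10, Tagln and Fhod1, and reads with several alignments limit Actg1 and Tpm3.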

Other observations

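Of the 4 melanocyte markers, Dct and Tyrp1 had their 3 ko libraries above their 3 wt libraries, as did 11.3% of all tested genes. The list summed to 57.1 to 66.6 CPM in wt and 71.7 to 117.9 CPM in ko. By edgeR 0 of the 4 were called, and 3 were higher in ko at an unadjusted p under 0.05, against 7.98% of all genes. The 5 macrophage and Langerhans cell markers summed to 63.9 to 105.1 CPM in wt and 90.1 to 125.4 CPM in ko, and the 3 T cell markers to 18.8 to 30.5 and 7.13 to 32.7 CPM, with overlapping groups for each of these 8 genes. Among the skeletal muscle markers the fetal myosin Myh8 stood at 11.8 CPM in ko replicate 2 and at 0.157 CPM or less in the other five libraries. The skeletal muscle actin Acta1 had its highest value in the same library, at 10.9 CPM, against 0.42 to 1.86 CPM elsewhere.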
